A study of Homo sapiens with 12 samples.

Results

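The genes that import cystine, build glutathione and spend it were measured by RNAseq in C4-2 prostate cancer (PrCa) cells treated with a PBK inhibitor (PBKi) or with its vehicle. They were chosen by name from their known roles, with earlier results of these data known. They comprised 10 of the 54127 genes in the files: SLC7A11, GCLC, GCLM, GSS, GSR, GPX1, GPX2, GPX4, MGST1 and GSTP1. Of these, 9 were among the 14505 genes that reached 10 counts in 6 or more libraries, and GSTP1 was not. After PBKi, the cystine carrier SLC7A11, both subunits of the rate-limiting enzyme (GCLC and GCLM), the glutathione reductase GSR, the peroxidase GPX2 and the microsomal transferase MGST1 were upregulated, between 1.36-fold for GSR and 3.36-fold for GCLM. Of these GPX2 was scarce, with 1 to 11 counts per library in DMSO and 4 to 27 in PBKi. Its groups overlapped, and it entered the test mainly through PBKi libraries. GSS, GPX1 and GPX4 did not pass the test, and GSTP1 had no counts.

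Glutathione is a tripeptide of glutamate, cysteine and glycine and is the most abundant small thiol of most cells. Cystine enters through system xc-, is reduced to cysteine, and is joined to glutamate by glutamate-cysteine ligase and then to glycine by glutathione synthetase. Peroxidases and transferases spend glutathione on peroxides and electrophiles, and glutathione reductase returns the oxidised form at the expense of NADPH. Many of these genes are known targets of the transcription factor NRF2 at antioxidant response elements, and SLC7A11 is also a known target of ATF4 on amino acid shortage.

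C4-2 is a castration-resistant line derived from LNCaP cells, and all samples were of this 1 line, grown in RPMI with 10% FBS. The 6 control libraries received DMSO and the other 6 received PBKi (HI-TOPK-032, which blocks the kinase PBK, also named TOPK) at 1 µM, for 6 h by the methods of the study. The labels describe the RNA as coming from flow-sorted cells and give no gate, and nothing in them says that replicates were separate cultures, so p-values measure the spread between these libraries, which may be technical. Reads on genes numbered 9663203 to 28029908 (median 13801732.5) in DMSO and 13122415 to 22817803 (median 14516359.5) in PBKi.

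The cells expressed the prostate epithelial markers listed for them (7 genes such as KLK3 and KRT8). Their summed level was 3984 to 4626 CPM in DMSO and 1935 to 2713 CPM in PBKi. CPM is the read count of a gene scaled to library size, with TMM factors. This sum does not speak for each marker. KLK3 had 24915 to 74245 counts per library in DMSO and 14960 to 27055 in PBKi, and KRT8 1705 to 3803 and 2222 to 4037. In the comparison described below, 4 of the 7 were downregulated and 1 upregulated, against 21.5% and 20.1% of all genes. Markers of other cells (11 genes measured) summed to 19.1 to 24.0 CPM in DMSO and 17.5 to 22.8 CPM in PBKi. Of these, 9 were under 1 CPM in every library, among them the defining leukocyte marker PTPRC, the endothelial marker CDH5, and COL1A2 and DCN. The others were COL1A1, with 169 to 511 counts per library in DMSO and 224 to 499 in PBKi, and KRT14, with 14 to 38 and 6 to 20. As these are bulk samples, fewer cells of a kind and less RNA per cell cannot be told apart. Reads outside genes were 5.74% to 6.96% of reads in DMSO against 5.94% to 9.30% in PBKi, where replicates 3 and 6 had the most. Their part in the results was not tested beyond leaving both libraries out, which left the call of each of the 8 glutathione genes that could still be fitted as it was (GPX2 could not).

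The stretch around the start site was searched for an antioxidant response element core, written TGACNNNGC, on either strand. Sites further from the start were not searched, so a gene without a match may hold the core elsewhere. The RefSeq promoter windows of GRCh38.p14 (250 bases before to 50 after the start site) held 7 of the 10 genes, and 4 of the 7 had the core, against 16.1% of all 27305 genes with a window. The 150 bases before the start site are given 5′ to 3′ along the gene for 3 genes with a core in them, with the core in capitals (it reads in reverse complement in GCLM and GPX2), and for GCLC, which had no match and is shown because it encodes the partner subunit of GCLM.
GCLM (GRCh38.p14, chr1:93909431-93909580, minus strand): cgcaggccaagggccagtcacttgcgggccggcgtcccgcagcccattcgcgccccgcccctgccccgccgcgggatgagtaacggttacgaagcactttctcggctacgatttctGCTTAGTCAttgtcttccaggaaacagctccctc
GCLC (GRCh38.p14, chr6:53545102-53545251, minus strand): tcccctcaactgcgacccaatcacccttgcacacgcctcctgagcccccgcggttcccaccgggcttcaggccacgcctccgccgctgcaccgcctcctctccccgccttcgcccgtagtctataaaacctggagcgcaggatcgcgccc
GPX2 (GRCh38.p14, chr14:64942746-64942895, minus strand): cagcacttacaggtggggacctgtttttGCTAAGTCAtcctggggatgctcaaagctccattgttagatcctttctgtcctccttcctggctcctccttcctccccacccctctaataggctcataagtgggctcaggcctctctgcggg
GSTP1 (GRCh38.p14, chr11:67583662-67583811, plus strand): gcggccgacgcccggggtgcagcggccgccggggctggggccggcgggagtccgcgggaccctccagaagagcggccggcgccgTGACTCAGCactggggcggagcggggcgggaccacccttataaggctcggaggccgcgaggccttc

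The core starts 34 bases before the start site in GCLM, 122 in GPX2 and 66 in GSTP1, and in MGST1 it lies 31 bases after 1 of its start sites. The GSTP1 core also holds TGACTCA, the sequence bound by AP-1 factors. GCLC, GPX1 and GPX4 had no match in their windows. The amino acid response element TGATGNAAN was in no window of the 7 genes and in 4.45% of all genes with a window. SLC7A11, GSS and GSR had no window, so neither motif was looked for in these genes. A match gives letters only, and binding was not measured in these libraries.

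The question of the comparison was which transcripts changed when PBK was inhibited in C4-2 cells. PBKi was compared with DMSO by the quasi-likelihood test of edgeR across all 14505 genes, and adjusted p-values are Benjamini-Hochberg values over all of them. In that comparison 41.7% of genes passed an adjusted p of 0.05, 20.1% upwards and 21.5% downwards, and the median log2 fold change was -0.01. Of the 10 glutathione genes 6 were upregulated, none was downregulated, 3 did not pass and 1 could not be tested. In 10.5% of all genes every PBKi library lay above every DMSO library, and 5 of the 10 glutathione genes were of this kind. As the 10 genes were chosen with earlier results known, these counts are not independent evidence of a direction. GPX2, among the 6, entered the test mainly through PBKi libraries, and of the 8 genes with at least 10 counts in every library 5 were upregulated and 3 did not pass. A log2 fold change of at least 1 was reached by SLC7A11 and GCLM among these 8 and, upwards, by 3.26% of all genes tested.

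**Figure D1:**
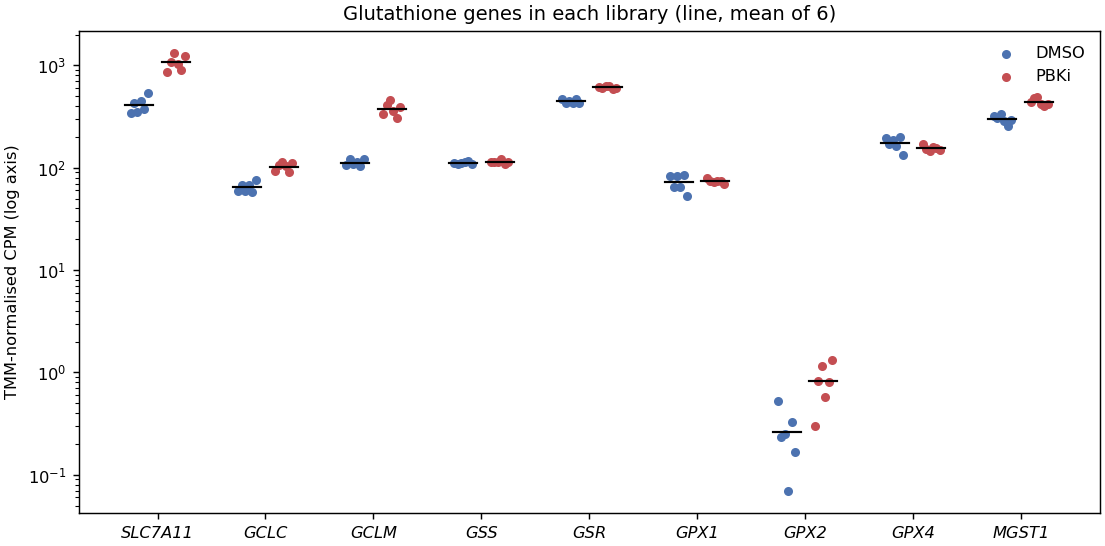
Level of each tested glutathione gene in each of the 12 libraries, in TMM-normalised CPM on a log axis, with DMSO in blue, PBKi in red, 1 point per library and a line at the mean of 6. SLC7A11, GCLC, GCLM, GSR and MGST1 show no overlap between the groups, whereas GSS, GPX1, GPX2 and GPX4 do.

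The listed gene of cystine uptake was SLC7A11, the light chain of system xc- that carries cystine in and glutamate out. SLC7A11 (ENSG00000151012, GRCh37 chr4:139085251-139163503, minus strand) ranged from 341 to 544 CPM in DMSO, with a median of 401 CPM, and from 857 to 1319 CPM in PBKi, with a median of 1058 CPM. The lowest PBKi library therefore lay above the highest DMSO library, DMSO replicate 6. DMSO libraries averaged 414 ± 76.3 CPM (SD, n = 6), and PBKi libraries 1071 ± 182 CPM (SD, n = 6). SLC7A11 rose 2.59-fold (95% interval 2.18 to 3.08), a log2 fold change of 1.37 with a standard error of 0.12 and an adjusted p of 8.97e-08 in edgeR's test. The two-sided exact permutation test gave p = 0.00216, the smallest it can give for 6 against 6. An antisense gene, SLC7A11-AS1, covers 8.97% of its exon bases, and as the strand setting of the counting is not given in the sources used here, reads in that stretch cannot be assigned to a strand.

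The partner of SLC7A11 is SLC3A2, the heavy chain that brings system xc- and other amino acid carriers to the cell surface. SLC3A2 lay between 250 and 295 CPM in DMSO and between 413 and 495 CPM in PBKi, without overlap. It rose 1.67-fold (95% interval 1.53 to 1.81, log2 fold change 0.74, adjusted p = 2.66e-08 in edgeR's test). The ratio of SLC7A11 to SLC3A2 within a library was 1.26 to 2.04 in DMSO (median 1.47) and 2.00 to 2.74 in PBKi (median 2.32). Its log2 value was 0.64 higher in PBKi, although the highest DMSO ratio, in replicate 6, exceeded the lowest PBKi ratio (two-sided exact permutation test, p = 0.00433, adjusted over 2 ratios 0.00433). SLC7A11 thus rose more than its partner. These ratios use CPM, not levels per length, so only their change between groups is read.

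Synthesis begins with glutamate-cysteine ligase, made of the catalytic subunit GCLC and the modifier subunit GCLM, which lowers the amount of glutamate the enzyme needs and its inhibition by glutathione. GCLM (ENSG00000023909, GRCh37 chr1:94350755-94375012, minus strand) ranged from 104 to 122 CPM in DMSO (median 111 CPM) and from 309 to 461 CPM in PBKi (median 376 CPM). The groups lay far apart, with no overlap. GCLM had the largest fold of the 9 genes tested, with a log2 fold change of 1.75 (standard error 0.08, fold 3.36, 95% interval 2.97 to 3.81, adjusted p = 5.2e-11 in edgeR's test), which ranked 204 from the top among 14505 genes. The exact permutation test gave its smallest value, p = 0.00216.

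GCLC (ENSG00000001084, GRCh37 chr6:53362139-53481768, minus strand) ranged from 58.1 to 75.9 CPM in DMSO (median 63.5 CPM) and from 90.4 to 113 CPM in PBKi (median 104 CPM). The groups did not overlap. GCLC rose 1.59-fold (95% interval 1.43 to 1.77), a log2 fold change of 0.67 with a standard error of 0.07 and an adjusted p of 1.78e-06 in edgeR's test, and the exact permutation test gave p = 0.00216. Other counted genes, GCLC-AS1 among them, cover 9.68% of its exon bases.

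Both subunits rose, and GCLM rose more. Within a library the ratio of GCLC to GCLM was 0.542 to 0.620 in DMSO (median 0.561) and 0.245 to 0.293 in PBKi (median 0.279), in CPM. Its log2 value fell by 1.07, and no library of one group overlapped the other (two-sided exact permutation test, p = 0.00216, adjusted over 2 ratios 0.00433). A ratio taken within a library does not depend on how libraries are scaled to each other.

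**Figure D2:**
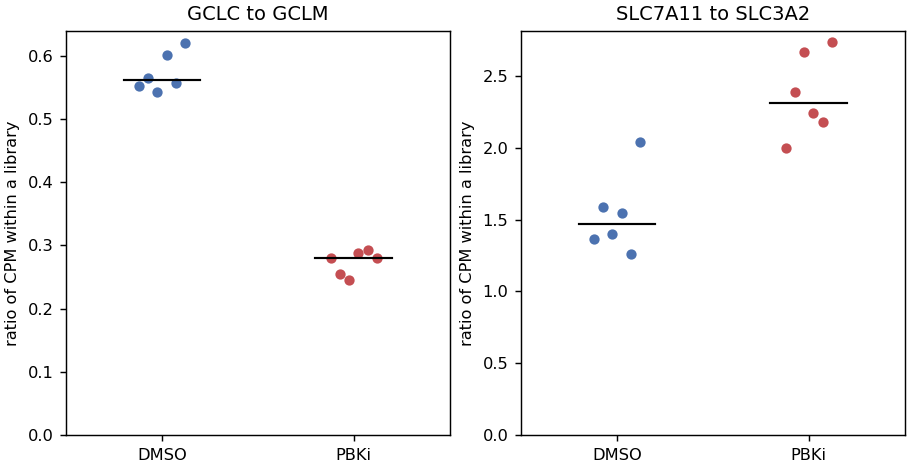
Ratio of GCLC to GCLM and of SLC7A11 to SLC3A2 in each library, as CPM over CPM, with 1 point per library and a line at the median of 6. The median GCLC to GCLM ratio is 0.561 in DMSO and 0.279 in PBKi, and the median SLC7A11 to SLC3A2 ratio is 1.47 in DMSO and 2.32 in PBKi.

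GSS, glutathione synthetase, adds glycine in the second step of synthesis. GSS (ENSG00000100983, GRCh37 chr20:33516235-33543830, minus strand) ranged from 108 to 117 CPM in DMSO (median 111 CPM) and from 110 to 122 CPM in PBKi (median 114 CPM). The groups overlapped almost entirely, with means of 111.8 ± 3.36 CPM (SD, n = 6) and 114.7 ± 4.13 CPM (SD, n = 6). The difference was 0.04 on the log2 scale (standard error 0.04, adjusted p = 0.518 in edgeR's test), with a 95% interval of the fold from 0.962 to 1.09, and the exact permutation test gave p = 0.206. A rise of the size seen in GCLC lies outside this interval.

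GSR, glutathione reductase, turns oxidised glutathione back to its reduced form with NADPH. GSR (ENSG00000104687, on chromosome 8) ranged from 430 to 472 CPM in DMSO (median 442 CPM) and from 583 to 626 CPM in PBKi (median 610 CPM). The libraries of each group lay close together and the groups were far apart. GSR rose 1.36-fold (95% interval 1.28 to 1.46), a log2 fold change of 0.45 with a standard error of 0.05 and an adjusted p of 6.22e-07 in edgeR's test (exact permutation test, p = 0.00216). It had the smallest rise of the genes that passed, and the smallest standard error of them.

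The peroxidases reduce peroxides with glutathione, GPX1 mainly hydrogen peroxide in the cytosol and GPX4 lipid hydroperoxides within membranes, where its loss leads to ferroptosis. GPX4 (ENSG00000167468, GRCh37 chr19:1103981-1106790, plus strand) ranged from 135 to 201 CPM in DMSO (median 177 CPM) and from 147 to 169 CPM in PBKi (median 155 CPM). DMSO replicate 6 held the lowest level of all 12 libraries and the other 5 DMSO libraries lay at 164 CPM or above. The log2 fold change of GPX4 was -0.16 (standard error 0.08, 95% interval of the fold 0.796 to 0.9997, adjusted p = 0.0997 in edgeR's test), which did not pass, and the exact permutation test gave p = 0.123. Leaving out DMSO replicate 6 gave -0.22 with an adjusted p of 0.00683, so the call differs with this library.

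GPX1 (ENSG00000233276, GRCh37 chr3:49394607-49396038, minus strand) ranged from 53.1 to 85.9 CPM in DMSO (median 74.4 CPM) and from 69.8 to 80.2 CPM in PBKi (median 73.8 CPM). DMSO libraries spread more widely than PBKi libraries and enclosed them. The difference was 0.03 on the log2 scale (standard error 0.10, adjusted p = 0.848 in edgeR's test, 95% interval of the fold 0.886 to 1.17), and the exact permutation test gave p = 0.708. The sign turned without DMSO replicate 6, at -0.04. Its processed copies GPX1P1 and GPX1P2 had 0 to 6 and 0 to 4 counts per library, and reads that fit more than 1 place were not counted.

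GPX2 is the peroxidase of the gut epithelium and was scarce in these cells. GPX2 (ENSG00000176153, GRCh37 chr14:65405870-65409464, minus strand) had 1 to 11 counts per library in DMSO and 4 to 27 in PBKi, 27 and 86 counts in all. In CPM it ranged from 0.0693 to 0.528 in DMSO (median 0.244 CPM) and from 0.301 to 1.33 in PBKi (median 0.817 CPM). Only PBKi replicate 1 lay within the DMSO range, and the other 5 PBKi libraries were above it. GPX2 rose 2.97-fold with a wide 95% interval of 1.71 to 5.16 (log2 fold change 1.57, standard error 0.38, adjusted p = 0.00294 in edgeR's test, exact permutation test p = 0.00649). It reached 10 counts in 1 DMSO library and 5 PBKi libraries, so it entered the test mainly through the group in which it was higher, and its change should be read from the counts.

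MGST1, a membrane-bound transferase that also has peroxidase activity towards lipid hydroperoxides, and GSTP1, the soluble pi-class transferase, join glutathione to electrophiles. MGST1 (ENSG00000008394, GRCh37 chr12:16500076-16762193, plus strand) ranged from 253 to 336 CPM in DMSO (median 299 CPM) and from 402 to 492 CPM in PBKi (median 431 CPM). The groups did not overlap. MGST1 rose 1.48-fold (95% interval 1.33 to 1.64), a log2 fold change of 0.56 with a standard error of 0.07 and an adjusted p of 5.82e-06 in edgeR's test (exact permutation test, p = 0.00216).

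GSTP1 (ENSG00000084207, GRCh37 chr11:67351213-67354127, plus strand) had 0 counts in all 12 libraries. A count of 0 allows a level of up to 3 counts, between 0.108 and 0.325 CPM by library, counting error only. Its upstream stretch, printed above, has 21 CpG dinucleotides in 150 bases. GSTP1 is known for promoter hypermethylation in PrCa, and DNA methylation was not measured here. The copy GSTP1P1 had 0 to 3 counts per library.

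**Figure D3:**
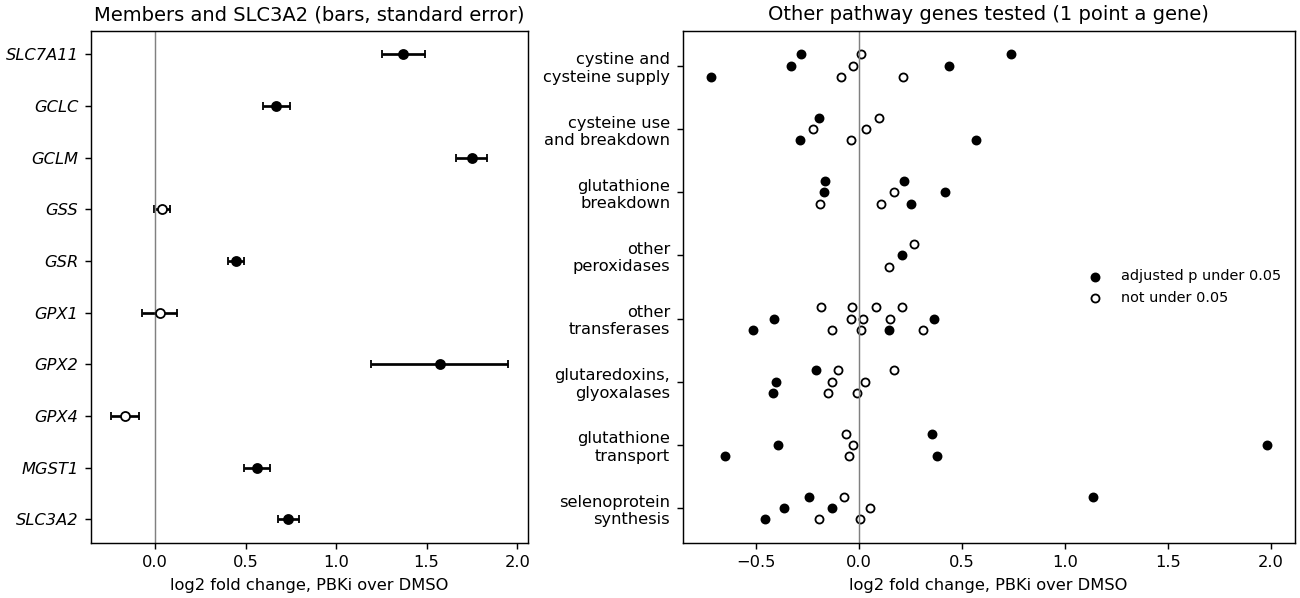
Log2 fold change of PBKi over DMSO, on the left for the 9 glutathione genes tested and SLC3A2 with bars of 1 standard error, and on the right for the other pathway genes by group with 1 point a gene. Filled points passed an adjusted p of 0.05 and open points did not. GCLM, GPX2 and SLC7A11 lie furthest right in the left panel, and each pathway group but the other peroxidases holds points on both sides of 0.

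Levels can be compared between genes only per length, here as CPM per kilobase of exon. In DMSO the order was GSR (124), GPX4 (94.98), GPX1 (50.8), SLC7A11 (42.9), MGST1 (40.2), GCLM (20.7), GSS (18.1), GCLC (7.50), GPX2 (0.196) and GSTP1 (0). On this scale GPX1, SLC7A11 and MGST1 did not differ beyond their spread. Their DMSO libraries spanned 37.1 to 60.0, 35.4 to 56.4 and 34.0 to 45.2. In PBKi the order began with GSR (169), SLC7A11 (111), GPX4 (84.8), GCLM (69.7), MGST1 (59.5) and GPX1 (51.8), and each neighbour after SLC7A11 overlapped the one before it. GSS (18.6) and GCLC (11.9) then followed clear of the others. By these lengths GCLM stood below MGST1 and GPX1 in DMSO and above both by its mean in PBKi. Exon lengths join all annotated transcripts of a gene, so a gene with long rare exons is placed too low on this scale. The lengths come from GENCODE mapped to GRCh37, which need not be the annotation the authors counted with. MGST1, GCLC and GSS have 7441, 8618 and 6166 joined exon bases, but their longest transcripts have 2152, 3785 and 3019. The places of these genes, and the order of MGST1 against GCLM, therefore depend on the length used.

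The 12 libraries also fall into 2 sets by number, replicates 1 to 3 and 4 to 6, which earlier results of these data had parted and which the labels do not describe. Among replicates 1 to 3 the log2 fold changes of SLC7A11, GCLC and GCLM were 1.55, 0.77 and 1.86, and among replicates 4 to 6 they were 1.22, 0.59 and 1.64, all upregulated in both sets. GSR (0.47 and 0.44) and MGST1 (0.56 and 0.58) were also upregulated in both. GPX2 passed in both (1.25 and 2.29, adjusted p = 0.04 and 0.0166 in edgeR's test) but was scarce. In replicates 4 to 6 GPX2 had 1 to 3 counts per library in DMSO and 12 to 18 in PBKi. It entered that fit only through the PBKi libraries and is to be read from the counts. GPX4 passed among replicates 1 to 3 alone, at -0.22 with an adjusted p of 0.0141 in edgeR's test, and was -0.10 in replicates 4 to 6 with an adjusted p of 0.609. The difference between sets did not pass for any of the 9 genes (adjusted p from 0.927 to 0.997 for the interaction in edgeR's test).

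Within each group, SLC7A11 and GCLC were high or low in the same libraries, and GPX1 and GPX4 were low where they were high. Over the deviations of the 12 libraries from their group means, Pearson's r was 0.967 between SLC7A11 and GCLC and 0.956 between GPX1 and GPX4. It was -0.849 between SLC7A11 and GPX4 and -0.801 between SLC7A11 and GPX1. DMSO replicate 6 stood furthest out, with SLC7A11 0.41 above and GPX4 0.36 below its group mean on the log2 scale. These are descriptions over libraries that share each library's depth and base composition.

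**Figure D4:**
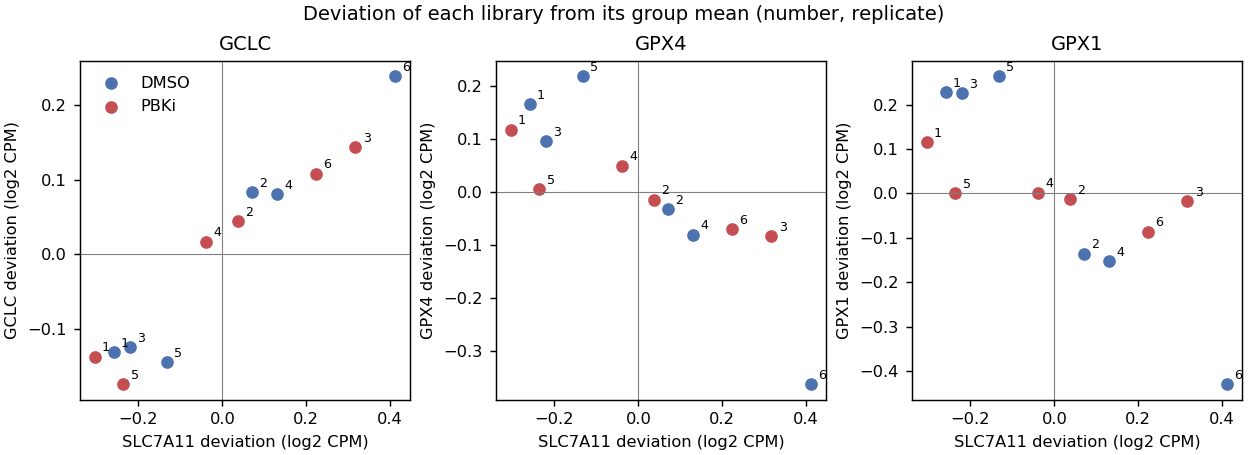
Deviation of GCLC, GPX4 and GPX1 from the group mean against that of SLC7A11, in log2 CPM, with 1 point per library, DMSO in blue, PBKi in red and the replicate number beside each point. GCLC rises with SLC7A11 (r = 0.967), and GPX4 and GPX1 fall with it (r = -0.849 and -0.801), with DMSO replicate 6 at the far end of each panel.

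Transcript length and GC content moved with the same libraries. Across genes, a library's deviation from its group mean had a Spearman correlation from -0.344 to 0.402 with transcript length, highest in DMSO replicate 6, and from -0.309 to 0.581 with GC content, lowest in the same library. SLC7A11 is long and GC-poor (9645 bases, 35.4% GC), and GPX1 (1150 bases, 64.1%) and GPX4 (1184 bases, 62.5%) are short and GC-rich, against medians of 3672 bases and 47.9% over the genes tested. With offsets for length and GC in each library, an alternative chosen after seeing the data, log2 fold changes were 1.38 for SLC7A11, 0.67 for GCLC, 1.80 for GCLM, 0.43 for GSR and 0.59 for MGST1, and all calls were the same. GPX1 was then 0.14 (adjusted p = 0.0716) and GPX4 -0.07 (adjusted p = 0.166 in edgeR's test).

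The genes whose deviations were most like those of SLC7A11, among 10040 genes of mean log2 CPM 3 or above, were GCLC (r = 0.967), CLCN3 (0.962) and MBNL2 (0.959) over 12 libraries. CLCN3 and MBNL2 are also long transcripts, of 6711 and 5068 bases, with 40.2% and 37.9% GC. GCLC, of 3785 bases and 44.2% GC, lies closer to the medians of 3672 bases and 47.9%. Those most like GCLM were TXNRD1 (0.961), SLC9A8 (0.952) and SLC41A2 (0.945). GCLM has 4883 bases and 37.3% GC, and TXNRD1 3974 bases and 44.6%. The part of length and GC content in these likenesses was not tested. TXNRD1, the cytosolic thioredoxin reductase, rose from 620 ± 46.4 to 2024 ± 239 CPM (SD, n = 6 each), or 1.71 on the log2 scale, close to that of GCLM.

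The wider pathway did not move one way. Of 92 other genes of cysteine and glutathione metabolism, 67 were tested, of which 13 were upregulated, 18 were downregulated and 36 did not pass, with a median log2 fold change of -0.03 against -0.01 over all genes. The share that passed, 46.3%, was near the 41.7% of all genes, of which 20.1% went up and 21.5% down. The counts by list below cover few genes each and are to be read against these shares. Every PBKi library lay above every DMSO library for 8 of the 67 genes, against 10.5% of all genes, and below for 11, against 9.68% of all genes. ABCC3, counted among the 13 and the 8, reached 10 counts in PBKi libraries only.

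Cystine and cysteine supply had 2 genes upregulated and 3 downregulated among 9 tested. SLC3A2 was the first of these, and CTH, which makes cysteine from cystathionine, rose from 30.6 ± 4.38 to 41.2 ± 4.08 CPM (SD, n = 6 each, log2 fold change 0.44). SLC1A1, a glutamate carrier that also takes up cysteine, fell from 4.91 ± 0.556 to 2.94 ± 0.557 CPM (SD, n = 6 each, log2 fold change -0.72). Cysteine use and breakdown had 1 gene upregulated and 2 downregulated among 7. SQOR, which oxidises hydrogen sulphide in mitochondria, rose from 38.6 ± 2.90 to 57.3 ± 4.22 CPM (log2 fold change 0.57). ETHE1, which oxidises the persulphide that SQOR forms, fell by 0.29 on the log2 scale (adjusted p = 0.0315 in edgeR's test). MPST, which makes hydrogen sulphide from a cysteine product, fell by 0.20 (adjusted p = 0.0395 in edgeR's test). The groups overlapped for both genes. MPST stood at 66.2 CPM in DMSO replicate 5, against 45.6 to 52.2 CPM in the other DMSO libraries.

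Glutathione breakdown had 3 genes upregulated and 2 downregulated among 8. CNDP2, which cleaves cysteinylglycine, rose from 287 ± 20.2 to 383 ± 8.92 CPM (SD, n = 6 each, log2 fold change 0.42). GGT7 of the gamma-glutamyltransferase family rose by 0.25 and CHAC1, which cleaves glutathione in the cytosol and is a known ATF4 target, by 0.22 on the log2 scale, a 1.16-fold change. Of 8 transport genes 3 were upregulated and 2 were downregulated. ABCC3, among the 3, reached 10 counts in PBKi libraries only. Of the 7 with at least 10 counts in every library 2 were upregulated and 2 downregulated. ABCC4, an exporter of glutathione and cyclic nucleotides, fell from 390 ± 38.0 to 248 ± 19.1 CPM (log2 fold change -0.65), and SLC25A40, a homologue of the mitochondrial glutathione carrier SLC25A39, fell by 0.39 on the log2 scale. ABCC5, an exporter of cyclic nucleotides, rose by 0.38 on the same scale.

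Other transferases mostly did not pass, with 2 upregulated, 2 downregulated and 10 not passing among 14. GSTO1, an omega-class enzyme with reductase activity, fell from 76.0 ± 10.7 to 53.4 ± 5.26 CPM (log2 fold change -0.52), and MGST2, of the same membrane family as MGST1, fell from 73.7 ± 5.81 to 55.5 ± 3.70 CPM (log2 fold change -0.41). GSTA4, which acts on the lipid aldehyde hydroxynonenal, rose by 0.36 on the log2 scale. Of the 3 other peroxidases tested 1 passed, PRDX6, a peroxiredoxin that uses glutathione, at 0.21. Glutaredoxins, glyoxalases and related enzymes had 3 of 9 downregulated and none upregulated, against 21.5% and 20.1% of all genes. GLO1, which clears methylglyoxal with glutathione, fell from 625 ± 44.5 to 468 ± 26.5 CPM (log2 fold change -0.42), TXNDC12, a thioredoxin-family protein of the endoplasmic reticulum, fell by 0.40 and GLRX2, a mitochondrial glutaredoxin, by 0.21 on the log2 scale.

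GPX1, GPX2 and GPX4 contain selenocysteine, and 9 genes of selenoprotein synthesis were tested. Of these 1 was upregulated and 4 were downregulated, against 20.1% and 21.5% of all genes. SEPHS2, which makes the selenium donor, rose from 147 ± 6.03 to 323 ± 29.9 CPM (SD, n = 6 each), without overlap. This was a log2 fold change of 1.14 with a standard error of 0.06 and an adjusted p of 1.79e-10 in edgeR's test. PSTK, the kinase that primes the selenocysteine tRNA, fell by 0.46 on the log2 scale, and LRP8, a receptor for selenoprotein P, by 0.36.

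Enzymes outside glutathione metabolism that are known NRF2 targets (NQO1, HMOX1, ME1 and 13 others) were set beside these genes. Of these 16, AKR1B10, AKR1C1, AKR1C2 and AKR1C3 had 0 to 11 counts per library in DMSO and entered the test through the PBKi libraries, where they had 29 to 2526. The other 12 were all upregulated (median 1.37 on the log2 scale) and 11 showed no overlap between groups, against 20.1% and 10.5% of all genes. This list was drawn up with earlier results of these data known and is not independent evidence of a direction, and reads of its near-identical AKR1C members may be split between them. Of 14 genes of the thioredoxin system 5 were upregulated and 5 downregulated, with a median log2 fold change of -0.04, against 20.1% and 21.5% of all genes and a median of -0.01.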

How the data were processed

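RNAseq was analysed from 12 C4-2 libraries, 6 treated with DMSO and 6 with PBKi, grouped by the sample labels. The authors aligned reads to GRCh37 with TopHat2 (version 2.0.4) and counted them per gene with HTSeq (version 0.5.3p9), per the submitters' processing notes. The deposited values are these raw counts, in 47 lane files of 54127 genes, without normalisation. Lanes were summed per library; DMSO replicate 5 had 3 lanes and the others 4.

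The 14505 genes that reached 10 counts in 6 or more libraries were tested with edgeR 4.0.16 in R 4.3.3 (TMM, quasi-likelihood test, no covariate, Benjamini-Hochberg at 0.05). Standard errors were derived from the fold change and its F statistic. Exact permutation tests were two-sided, on log2 CPM with a prior count of 2. On simulated data of 14372 genes, 99 were changed 1.5-fold and 97 were changed 2-fold. Of these changes 83.8% and 93.8% were recovered, and 5.95% of calls were false. The simulation drew each count independently and changed far fewer genes than passed here, so these shares need not hold for the real libraries.

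Depth was 9663203 to 28029908 reads on genes per library. Symbols came from the supplied gene table (47098 of 54127 identifiers), and coordinates and exon lengths from GENCODE mapped to GRCh37. Named genes were all members, SLC3A2, up to 3 genes per pathway list that passed with the largest change (mean log2 CPM 1 or above), and the 3 genes most like SLC7A11 and GCLM. Members and lists were chosen with earlier results of these data known. 1 marker gene is not reported here. Alternatives were DESeq2 1.42.0, limma-voom (limma 3.58.1), RLE and upper quartile factors, other count filters, lanes 6 to 8, a replicate block, replicate sets, a stricter threshold, prior counts, and leaving out libraries. Added after seeing the data were offsets for length and GC, and leaving out PBKi replicates 3 and 6.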

Additional observations from a re-analysis of the deposited data

Results flagged for a closer look

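A library far from the other 5 of its group was found in 2 of 62 groups of 6 examined, where chance gives about 1 in 20. MPST was 66.2 CPM in DMSO replicate 5, against 45.6 to 52.2 CPM in the other DMSO libraries. SLC25A40 was 59.9 CPM in the same library, against 68.8 to 74.0 CPM. DMSO replicate 5 had the fewest reads, 3 lanes and the highest correlation of its deviations with GC content (0.581), whose part in both values was not tested.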

How the results depend on the processing

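SLC7A11, GCLC, GCLM, GSR and MGST1 stayed upregulated under every alternative run, with log2 fold changes of 1.22 to 1.55, 0.59 to 0.77, 1.64 to 1.86, 0.43 to 0.47 and 0.53 to 0.60, and GSS never passed. GPX2 was upregulated in all fits it entered, but could be fitted in only 6 of the 12 with a library left out. The sign of GPX1 turned in replicates 1 to 3 alone (-0.037) and without DMSO replicate 6 (range with a library left out -0.035 to 0.078), never past the threshold. GPX4 passed in replicates 1 to 3 alone (-0.216), and with a library left out ranged from -0.216 to -0.117, passing without DMSO replicate 6, so that the number of these genes downregulated was 1 in the first and 0 to 1 in the others. The cause was not tested.

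Same-numbered libraries deviated together with correlations of 0.089 to 0.299, of which 5 of 6 were over 0.1, and 4 of 6 DMSO libraries correlated best with their own number. The labels do not say what a number shares. With the replicate number as a block, GPX4 passed at -0.155 (adjusted p = 0.035 in edgeR's test), which makes 1 gene downregulated, and GPX2 gave 1.30 by the exact sign-change permutation test (p = 0.0625, smallest possible 0.0312). No other call on these genes or ratios changed with the block. Over all genes 3485 were then called up and 3803 down.

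In replicates 4 to 6 alone, 1303 genes were called up and 1216 down, and 6 and 10 of the other pathway genes. At an adjusted p under 0.01, 2073 genes were called down. Without PBKi replicates 3 and 6, 2004 genes and 11 pathway genes were called down. The first and last of these fits use fewer libraries. Depth limits GPX2 and GSTP1, where 3 counts are 0.108 to 0.325 CPM.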

Other observations

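ABCC3, an exporter of glutathione conjugates, was scarce and falls outside the rule for named genes, and it was chosen after its values were seen. DMSO libraries averaged 0.254 ± 0.101 CPM (SD, n = 6), and PBKi libraries 1.08 ± 0.173 CPM (SD, n = 6). It had 1 to 8 counts per library in DMSO and 12 to 28 in PBKi, so it entered the test only through the PBKi libraries, and these counts are given as a description. ABCC1, another exporter of these conjugates, rose from 104 ± 7.89 to 133 ± 13.2 CPM (SD, n = 6 each, log2 fold change 0.35), without overlap.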
